A study of Mus musculus with 9 samples.

Results

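The 7 genes described here bind, sense or carry zinc: the metallothioneins Mt1, Mt2 and Mt3, the metal-sensing transcription factor Mtf1, the zinc exporter Slc30a1 and the zinc importers Slc39a10 and Slc39a14. They were found as the probe sets that the platform's annotation pairs with 1 of these symbols alone. Each gene had 1 such probe set, so the set holds 7 of 23397 probe sets with a listed gene. The genes were chosen by measured values of these arrays, namely the high Mt1 and Mt2 intensities with LE540. Their values in LE540 against DMSO, and in ATRA against LE540, which uses the same LE540 arrays, are therefore a description without a test. ATRA against DMSO was tested. It shares the DMSO arrays with the first of these comparisons, so the test is not fully separate from that choice.

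The study cultured aortic valves of C57BL/6J mice, taken at postnatal day 1, on floating filters for 48 hours in DMEM with serum, and measured RNA on 1 array per pool. Controls received DMSO at 0.001%, another group 1 µmol/L all-trans retinoic acid (ATRA), and the last group LE540, an antagonist of retinoic acid receptors whose dose and vehicle are not given in the labels. Each group has 3 arrays, each from the pooled valves of 5 to 6 pups, and the sex of the pups is not given. The 3 groups allow the question whether added retinoic acid, or blocking its receptors, changed expression in the cultured valve. The explants hold several cell types, so fewer cells of a type and less RNA per cell cannot be told apart.

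Metallothioneins are small cysteine-rich proteins that bind zinc and copper and buffer free zinc in the cell. Free zinc is sensed by MTF-1, the product of Mtf1, which enters the nucleus and binds metal response elements in the promoters of Mt1, Mt2 and Slc30a1. In zinc-rich cells MTF-1 is known to induce these genes, so that zinc is bound or exported, and to repress Slc39a10. Metallothioneins are also known to respond to glucocorticoids and to oxidative stress.

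RefSeq (GRCm38.p6) gave a window of 250 bases before to 50 bases after a start for 6 of the 7 genes. The 250 upstream bases of Mt2 and Mt1, of their neighbour Mt3 and of the exporter Slc30a1 are shown. They were picked because Mt2, Mt1 and Slc30a1 were higher on the LE540 arrays and Mt3, beside Mt2 and Mt1, was not. Capitals mark the core of the metal response element, TGCACNC or TGCGCNC on either strand.
Mt2, chr8:94172368-94172617, plus strand: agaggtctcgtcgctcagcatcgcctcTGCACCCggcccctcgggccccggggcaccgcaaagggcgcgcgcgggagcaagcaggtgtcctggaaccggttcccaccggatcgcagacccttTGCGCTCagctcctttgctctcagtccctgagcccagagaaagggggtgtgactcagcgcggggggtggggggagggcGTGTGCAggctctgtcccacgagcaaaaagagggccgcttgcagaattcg
Mt1, chr8:94178839-94179088, plus strand: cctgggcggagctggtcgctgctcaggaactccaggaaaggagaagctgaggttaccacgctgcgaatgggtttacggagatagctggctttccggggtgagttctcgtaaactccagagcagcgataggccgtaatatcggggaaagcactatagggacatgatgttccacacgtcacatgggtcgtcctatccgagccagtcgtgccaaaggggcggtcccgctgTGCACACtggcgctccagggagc
Mt3, chr8:94152357-94152606, plus strand: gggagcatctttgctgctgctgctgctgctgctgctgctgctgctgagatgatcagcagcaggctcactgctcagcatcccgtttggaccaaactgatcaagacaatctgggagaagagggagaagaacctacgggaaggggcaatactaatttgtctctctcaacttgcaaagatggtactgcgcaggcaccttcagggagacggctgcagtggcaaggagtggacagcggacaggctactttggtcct
Slc30a1, chr1:191906531-191906780, plus strand: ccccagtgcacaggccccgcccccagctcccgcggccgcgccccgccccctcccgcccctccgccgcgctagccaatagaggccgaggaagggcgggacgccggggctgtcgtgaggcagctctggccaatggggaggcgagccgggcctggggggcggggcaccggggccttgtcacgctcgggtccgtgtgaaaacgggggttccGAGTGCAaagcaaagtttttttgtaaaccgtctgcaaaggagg
Over the whole window of 300 bases, Mt2 held 4 metal response element cores, of which 1 lies after the start. Mt1 held 3, of which 2 lie after the start, and Slc30a1 held 2, of which 1 does. Mt3 held 1, also after the start, and Mt4, the fourth gene of the cluster, held 1. Before the start Mt2 thus held 3 cores, and Mt1, Slc30a1 and Mt4 held 1 each. Mtf1 and both Slc39a10 windows held 0. Of all 32851 windows of this length in the table, 25.7% held at least 1 core, 7.11% at least 2, 1.97% at least 3 and 0.517% at least 4. The core of the antioxidant response element, TGACNNNGC on either strand, matched 1 time in the Mt2 window and 1 time in the Slc30a1 window, and in 12.4% of all windows. The direct repeat with a 5-base spacer that retinoic acid receptors bind (the half-sites AGGTCA or AGTTCA, in any pairing and on either strand) had 0 matches in these windows and was found in 0.0396% of all windows. No metal core overlapped an antioxidant core. The result depends on which annotated start a window is built on, and a match is no proof of binding.

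**Figure D1:**
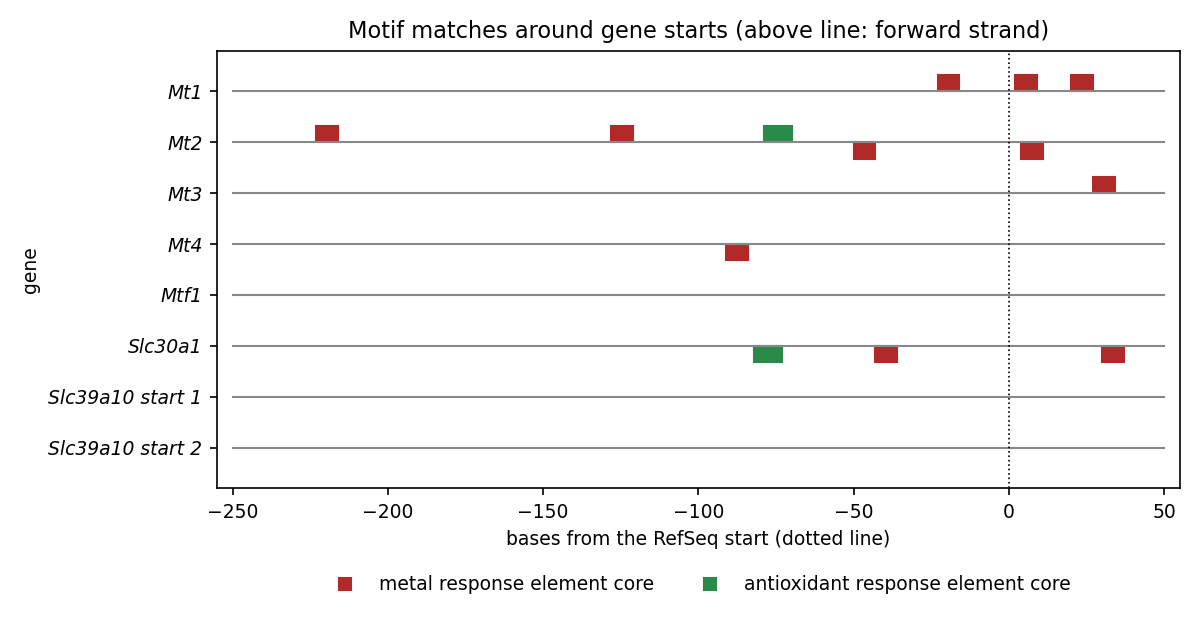
Positions of motif matches (x axis, bases from the RefSeq start) in the 300-base window of each gene; red boxes are metal response element cores and green boxes antioxidant response element cores, drawn above the line for the forward and below it for the reverse strand. Mt2 carries 4 metal cores, Mt1 3 and Slc30a1 2, and the Mtf1 and Slc39a10 windows carry 0.

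Some features of the whole series bear on these values. The array medians of the tested probe sets lay between 134 and 139 intensity units. LE540 replicate 1 stood apart from the other arrays (63.7 on the first principal component, the others between -21.5 and 13.9), so results are also given without it. Xist, the RNA of the inactive X chromosome, ran from 2294 to 2903 in DMSO, 85.7 to 1393 in ATRA and 61.6 to 1652 in LE540 arrays, and the summed level of 3 Y-linked genes from 110.0 to 613 in DMSO, 533 to 1411 in ATRA and 213 to 1334 in LE540 arrays. Xist was thus lower on every ATRA and LE540 array than on any DMSO array. Valve mesenchyme markers were present, 10 of 10 above the array median, with Mgp, a calcification inhibitor, averaging 8603. Their summed level ran from 28670.1 to 34708 in DMSO, 34635 to 37689 in ATRA and 19301 to 31606 in LE540 arrays, with 9 of 10 lower with LE540 and 0 passing in limma. The 1 marker with an unadjusted p under 0.05 was Twist1, a mesenchymal transcription factor, which was the 1 that was higher (0.45). Summed levels over all 9 arrays were 8838 to 19644 for cardiomyocyte, 1372 to 5419 for endothelial and 2066 to 4511 for macrophage markers. They were 855 to 1708 for melanocyte, 340.05 to 405 for hepatocyte and 926 to 1924 for neuron and glia markers. In each of these lists the sums overlapped between LE540 and DMSO arrays. Lower with LE540 were 9 of 10 macrophage markers (median -0.23 log2), 5 of 10 cardiomyocyte and 6 of 10 endothelial markers. Of the melanocyte markers 2 of 8 were lower, of the hepatocyte markers 1 of 4 and of the neuron and glia markers 3 of 5. In LE540 against DMSO 0 of the 47 measured markers of these 6 lists passed (limma). The melanocyte gene Mlana was the 1 with an unadjusted p under 0.05, at 0.73. Over all tested probe sets 0.0299% passed and 8.8% had an unadjusted p under 0.05. A count of 0 passing is thus near the share over all, and nothing on cell make-up is read from it. The part of sex or cell make-up in the results below was not tested, except where a fit with the Y-linked score is given.

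Mt2 and Mt1 were far higher with LE540 and not with ATRA. Mt2 (probe set 10574023) read 758, 396 and 606 in the 3 DMSO arrays, 433, 1058 and 506 in the ATRA arrays and 10311, 4997 and 6561 in the LE540 arrays. The lowest LE540 array lay above every DMSO and ATRA array, and the ATRA and DMSO arrays overlapped. The group means were 587 ± 182 for DMSO, 666 ± 342 for ATRA and 7289.6 ± 2731 for LE540 (SD, n = 3 each). LE540 was higher than DMSO by 3.62 on the log2 scale (SE 0.39, 12.3-fold), which had the top rank by size of change among the 23397 tested probe sets. Without LE540 replicate 1 the difference was 3.34.

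Mt1 (10574027) read 1139, 530.4 and 944 in DMSO, 1289.7, 874 and 877 in ATRA and 5249.98, 3449 and 4582 in LE540 arrays. Again every LE540 array exceeded every other array, while DMSO and ATRA overlapped. The means were 871 ± 311, 1014 ± 239 and 4427 ± 910.3 (SD, n = 3 each), a log2 difference between LE540 and DMSO of 2.39 (SE 0.29, 5.26-fold), or 2.26 without LE540 replicate 1. The arrays that were high and low for Mt1 and Mt2 were the same within DMSO (replicate 1 highest, replicate 2 lowest) and within LE540 (replicate 1 highest, replicate 2 lowest). Within ATRA they were not, since Mt1 was highest in replicate 1 and Mt2 in replicate 2.

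**Figure D2:**
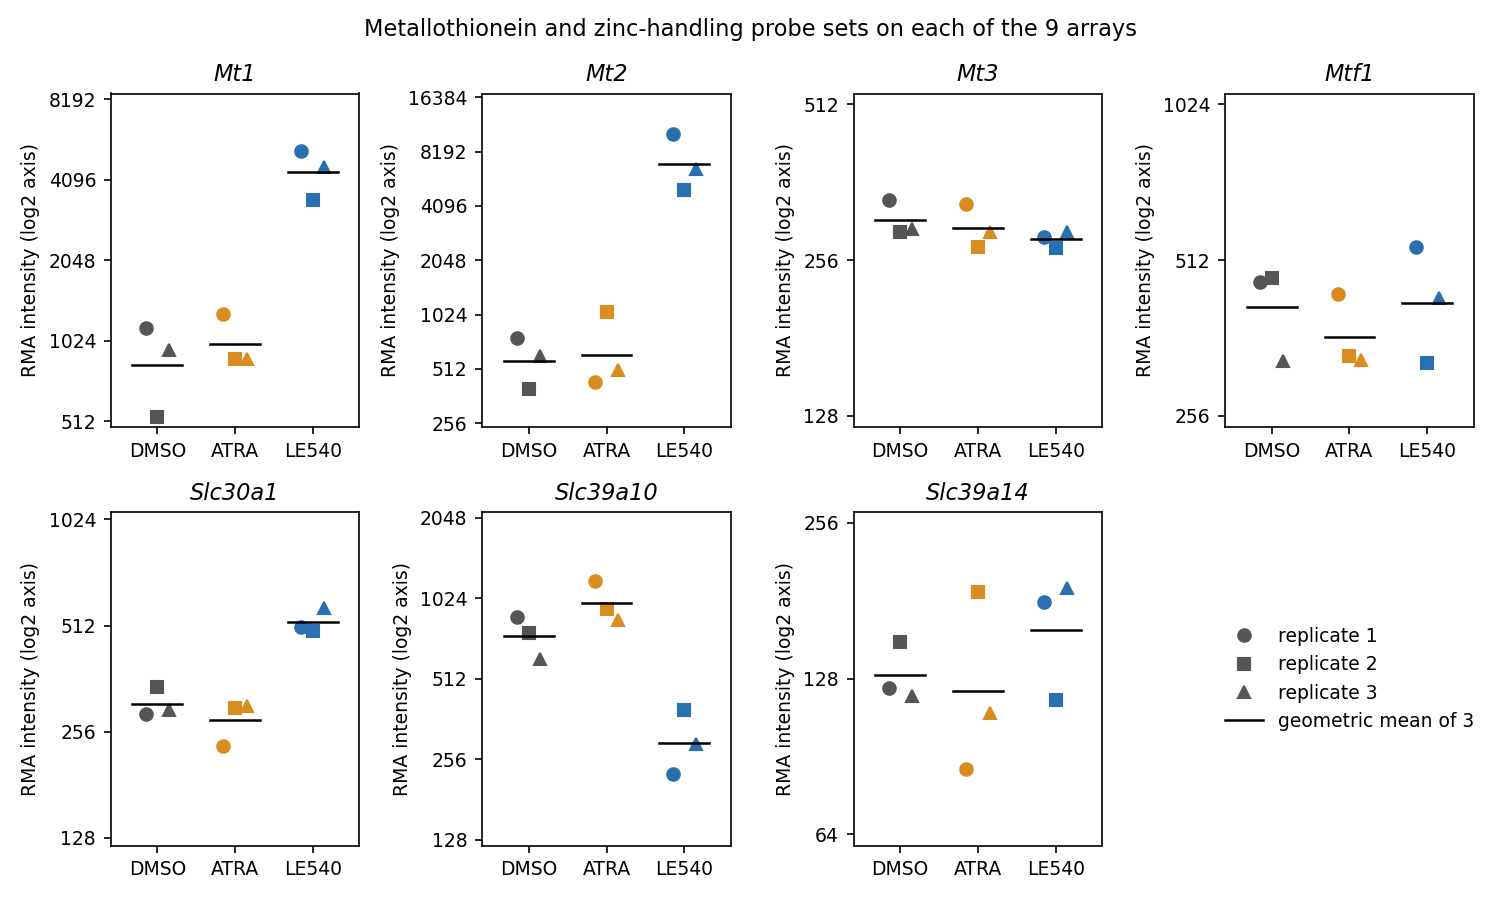
RMA intensity (y axes, log2 scale, each panel with its own range) of the 7 probe sets on the 3 DMSO, 3 ATRA and 3 LE540 arrays; each point is an array, its shape gives the replicate number, and the bar is the geometric mean. Mt1, Mt2 and Slc30a1 are higher on all LE540 arrays than on any other array and Slc39a10 is lower, while Mt3, Mtf1 and Slc39a14 overlap between groups.

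Mt3, known as a metallothionein of the brain, did not share this pattern. It (10574018) read 335, 289.9 and 294 in DMSO, 328, 272 and 289.9 in ATRA and 284, 270.15 and 289.9 in LE540 arrays, so all 3 groups overlapped. LE540 minus DMSO was -0.12 on the log2 scale (SE 0.11) and ATRA minus DMSO -0.05 (SE 0.11). Mt4, known from squamous epithelia, averaged 57.9, which is under the lowest of the arrays' lower quartiles (64.5), and differed between LE540 and DMSO by 0.28 (SE 0.16, limma adjusted p = 0.623), with its highest value, 86.3, in LE540 replicate 1. Markers of neurons and glia, of which 1 of 5 lay above the array median, had a median log2 difference of -0.03 between LE540 and DMSO.

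The high values stopped at the edges of the Mt2 and Mt1 pair. In the RefSeq gene table (GRCm38.p6) the protein-coding order on chromosome 8 is Nudt21, Ogfod1, Bbs2, Mt4, Mt3, Mt2, Mt1, Nup93, Slc12a3 and Herpud1. Flanking genes were taken by position, not by value. The 3 genes before the cluster differed between LE540 and DMSO by 0.05 (Nudt21, an RNA cleavage factor), 0.11 (Ogfod1, a ribosomal hydroxylase) and -0.34 (Bbs2, a cilium protein) on the log2 scale, and none of them passed. Nup93, a nuclear pore protein directly after Mt1, was at -0.16 (SE 0.22), and Slc12a3, a salt cotransporter, at 0.03 (SE 0.08). Herpud1, next after Slc12a3 and a known target of endoplasmic reticulum stress, was higher on all LE540 arrays than on any DMSO array (0.75, SE 0.20) and did not pass (limma adjusted p = 0.428).

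**Figure D3:**
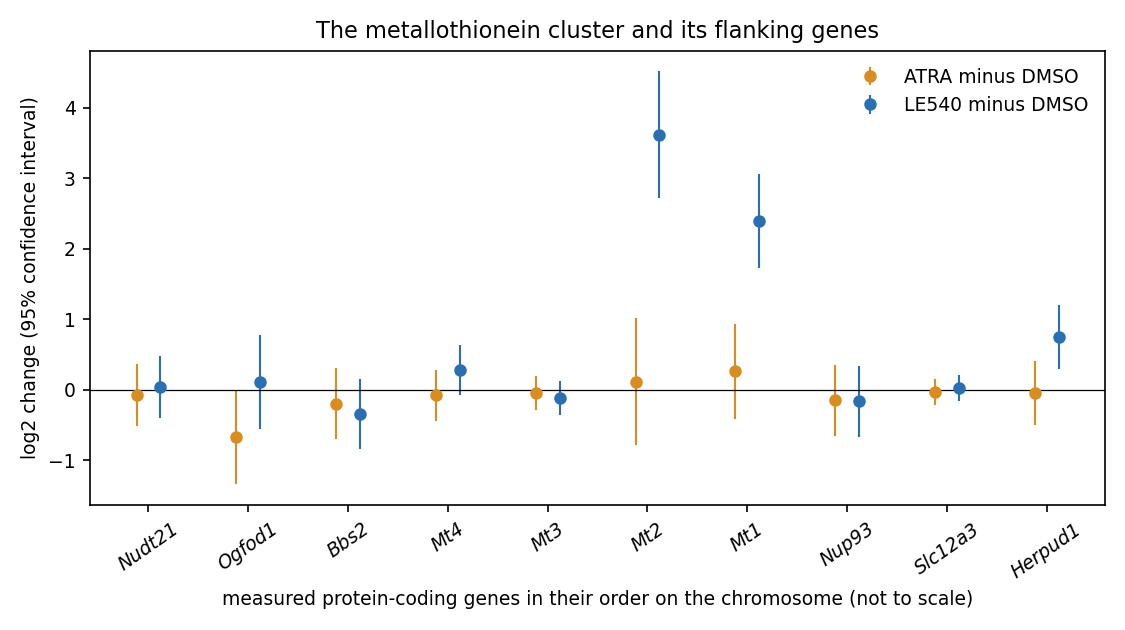
Log2 change against DMSO (y axis, with 95% confidence interval of the fit) for ATRA and LE540, for the metallothionein cluster and the 3 protein-coding genes on each side, in chromosomal order on the x axis without scale. With LE540, Mt2 (3.62) and Mt1 (2.39) stand above Mt3 (-0.12) and Mt4 (0.28), and with ATRA the 4 metallothioneins lie between -0.07 and 0.26.

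The plasma membrane transporters differed in opposite directions. Slc30a1 (10352777), which moves zinc out of the cell, read 287, 343 and 296 in DMSO, 234, 298 and 303 in ATRA and 509, 493 and 574 in LE540 arrays. All LE540 arrays lay above all others, with a narrow spread (525 ± 42.7 against 309 ± 29.97 in DMSO, SD, n = 3 each). The log2 difference between LE540 and DMSO was 0.77 (SE 0.13, 1.70-fold), and 0.79 without LE540 replicate 1.

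Slc39a10 (10354389), which brings zinc into the cell, was low with LE540. It read 871, 762 and 604.5 in DMSO, 1182, 936 and 852 in ATRA and 225, 390.5 and 293 in LE540 arrays. The highest LE540 array lay below the lowest DMSO array, and the ATRA arrays overlapped the upper end of DMSO. The group means were 746 ± 134 for DMSO, 989.9 ± 172 for ATRA and 303 ± 83.3 for LE540 (SD, n = 3 each), and LE540 minus DMSO was -1.32 on the log2 scale (SE 0.22, 2.50-fold lower), or -1.12 without LE540 replicate 1. Within LE540, replicate 1 had the highest Mt1 and Mt2 and the lowest Slc39a10, and replicate 2 the reverse, whereas Slc30a1 was highest in replicate 3.

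The sensor and the other importer overlapped between all groups. Mtf1 (10507961) read 465, 474 and 327 in DMSO, 439, 334 and 328 in ATRA and 542, 324 and 433 in LE540 arrays. Its log2 difference between LE540 and DMSO was 0.02 (SE 0.22). That value turned to -0.15 without LE540 replicate 1, so it has no settled direction. Slc39a14 (10421309), an importer of zinc, iron and manganese, read 123, 151 and 119 in DMSO, 85.6, 189 and 109.9 in ATRA and 180.1, 116 and 191 in LE540 arrays, with LE540 minus DMSO at 0.29 (SE 0.29, 0.15 to 0.51 with 1 array left out). Both replicate 2 arrays of DMSO and ATRA were the highest of their group for Slc39a14, and the replicate 2 array of LE540 the lowest.

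By the series' own threshold (limma, an adjusted p under 0.1 over all tested probe sets), Mt1 and Mt2 were 2 of the 7 probe sets that passed in LE540 against DMSO, all 7 of them up (0.0299% of all tested), and both rose over 2-fold. This is the property by which the set was chosen. Slc39a10 was over 2-fold lower and Slc30a1 less than 2-fold higher, and neither passed; 3 of the 7 differed over 2-fold, against 1.23% of all tested probe sets. LE540 and DMSO arrays did not overlap for 4 of the 7 genes, 3 higher and 1 lower, against 12.6% of all tested probe sets in either direction, 6.74% higher and 5.86% lower. Nothing is read from these counts, because the set was chosen on the same LE540 arrays. The call of Mt1 and Mt2 is close to the threshold, although the size of the change is not. With 1 array left out Mt2 ranged from 3.34 to 3.86 and Mt1 from 2.07 to 2.62 on the log2 scale. Of the 7 genes, 0 passed without DMSO replicate 1, 2 or 3, without ATRA replicate 3 or without LE540 replicate 1, and Mt2 alone passed without ATRA replicate 2. Without LE540 replicate 2 or without LE540 replicate 3, Mt1, Mt2 and Slc39a10 passed. With a Y-linked score added to the fit 0 passed, and the log2 differences were 3.48 for Mt2, 2.06 for Mt1, 0.80 for Slc30a1 and -1.12 for Slc39a10.

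**Figure D4:**
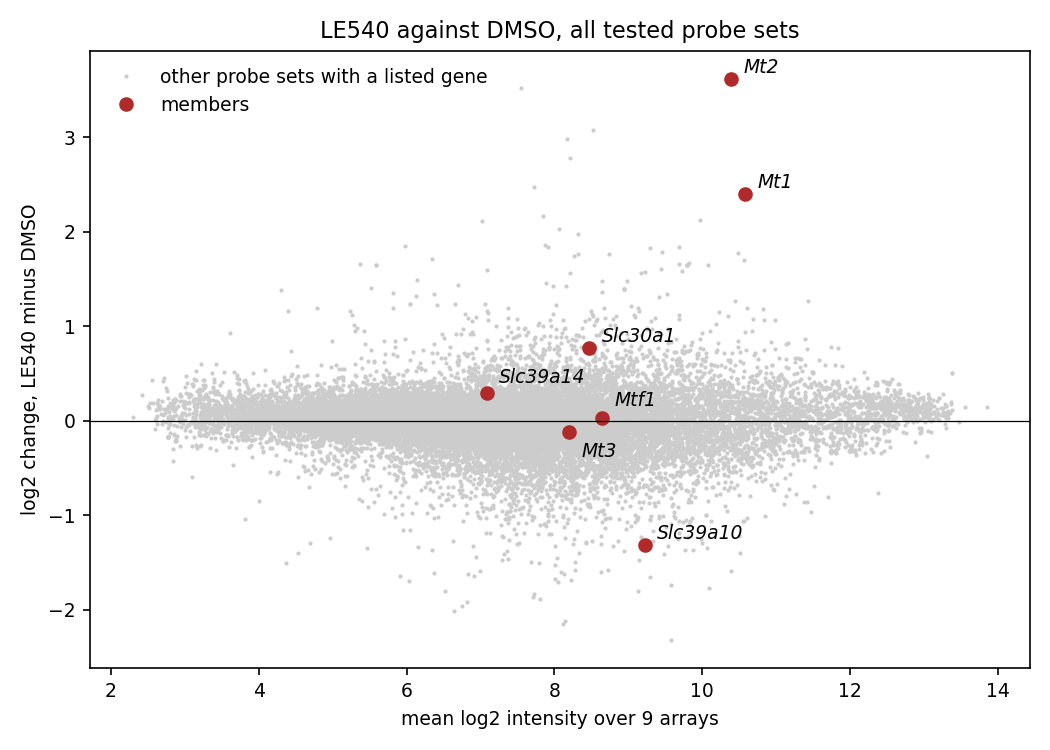
Log2 change between LE540 and DMSO (y axis) against mean log2 intensity over the 9 arrays (x axis) for all 23397 tested probe sets (grey), with the 7 members in red. Mt2 (3.62) is the highest point, Mt1 (2.39) and Slc39a10 (-1.32) lie at the edges of the cloud, and Mt3, Mtf1 and Slc39a14 lie within it.

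None of these genes passed the test with retinoic acid. In ATRA against DMSO 0 of 7 passed in limma, against 0.0812% of all tested probe sets, and 0 of 7 had an unadjusted p under 0.05, against 4.7% (adjusted p = 0.999 for each). The arrays of the 2 groups overlapped for all 7 genes, and 11.3% of all tested probe sets showed no overlap. Counts of 0 among 7 are near these shares, so nothing on the 7 genes is read from them. The log2 differences were 0.12 for Mt2 (95% confidence interval -0.78 to 1.01), 0.26 for Mt1 (-0.41 to 0.93), -0.15 for Slc30a1 (-0.45 to 0.15), 0.41 for Slc39a10 (-0.10 to 0.92), -0.20 for Mtf1 (-0.70 to 0.31) and -0.10 for Slc39a14 (-0.77 to 0.57). The interval of Slc39a10 lay mostly above 0. That of Mt2 was the widest and holds a 2-fold rise. The ATRA arrays did carry a retinoic acid response: 3 of 7 measured retinoic acid targets rose, among them Tgm2, a transglutaminase (504.6 to 609.7 in ATRA against 108 to 118 in DMSO, 2.32 log2, limma adjusted p = 0.000228). The other 2, Dhrs3 and Cyp26a1, which lower retinoic acid, lost their call in some alternatives (adjusted p up to 0.225 and 0.309). In LE540 against DMSO 0.0299% of all tested probe sets passed and 8.8% had an unadjusted p under 0.05. Of the 7 targets 0 passed and 0 had an unadjusted p under 0.05 (limma). Those with the largest differences were Rarb, a retinoic acid receptor, at -0.57 (SE 0.46, from -0.94 to -0.18 with 1 array left out), and Dhrs3 at -0.38 (SE 0.34, from -0.77 to -0.19).

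ATRA against LE540 shares its LE540 arrays with the comparison above and is given as values only. Relative to LE540, ATRA arrays were lower by 3.50 log2 for Mt2 (SE 0.39), by 2.13 for Mt1 (SE 0.29) and by 0.92 for Slc30a1 (SE 0.13), and higher by 1.73 for Slc39a10 (SE 0.22). These are the 4 genes that lay past the threshold (0.603% of all tested probe sets, 0.41% up and 0.192% down) and whose arrays did not overlap (11.5% of all), and nothing is read from either count, because the set was chosen on the same LE540 arrays. Without LE540 replicate 1 the number past the threshold was 2 (Mt2 and Slc39a10), and without ATRA replicate 3 it was 3 (Mt2, Slc30a1 and Slc39a10). Mt3, Mtf1 and Slc39a14 overlapped, at 0.07, -0.22 and -0.39 log2.

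The other zinc transporters had a median difference near 0 between LE540 and DMSO. Beyond the members, 21 genes of the Slc30a exporter and Slc39a importer families were measured. In LE540 against DMSO 0 of 21 passed (limma, 0 with an unadjusted p under 0.05). Over all tested probe sets 0.0299% passed and 8.8% had an unadjusted p under 0.05. A count of 0 passing is near that share, and nothing is read from it. Of the 21 genes 11 were higher and 10 lower, from -0.17 to 0.40 log2 with a median of 0.01, against a median of 0.02 over all 19934 genes. Members included, 6 of 10 exporters and 7 of 14 importers were higher with LE540, with medians of 0.05 and -0.003. After Slc30a1, the exporter with the largest difference was Slc30a4, which loads zinc into vesicles, at 0.26 (SE 0.20, limma adjusted p = 0.706), or 0.08 without LE540 replicate 1 (up to 0.43 with another LE540 array, replicate 2, left out). After Slc39a10, the importer with the largest was Slc39a6, its closest relative, at 0.40 (SE 0.19, limma adjusted p = 0.588), which is opposite in sign to Slc39a10. Slc39a6 read 604 to 786 in DMSO, 743 to 745 in ATRA and 692 to 1212 in LE540 arrays, the highest being replicate 1, and without that array the difference was 0.18. Slc30a8, Slc39a8 and Slc39a12 averaged below the lower quartile of at least 1 array, where signal over background is unknown.

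In ATRA against DMSO 0 of these 21 transporters passed either (limma, 1 with an unadjusted p under 0.05), with 11 higher, a range of -0.32 to 0.32 and a median of 0.0008. In that comparison 0.0812% of all tested probe sets passed, 4.7% had an unadjusted p under 0.05, and 48.1% of all 19934 genes were higher. The counts for the transporters are near these shares, and nothing is read from them. The 1 gene with an unadjusted p under 0.05 was Slc39a1, a plasma membrane importer, named here after its values were seen. It read 802 to 969 in DMSO, 1037 to 1178 in ATRA and 904 to 984 in LE540 arrays, a log2 difference of 0.32 between ATRA and DMSO (limma adjusted p = 0.894). Of the 10 exporters 3 were higher with ATRA and of the 14 importers 9, with medians of -0.09 and 0.08, and 0 of either passed (limma, with 0 exporters and 1 importer at an unadjusted p under 0.05).

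**Figure D5:**
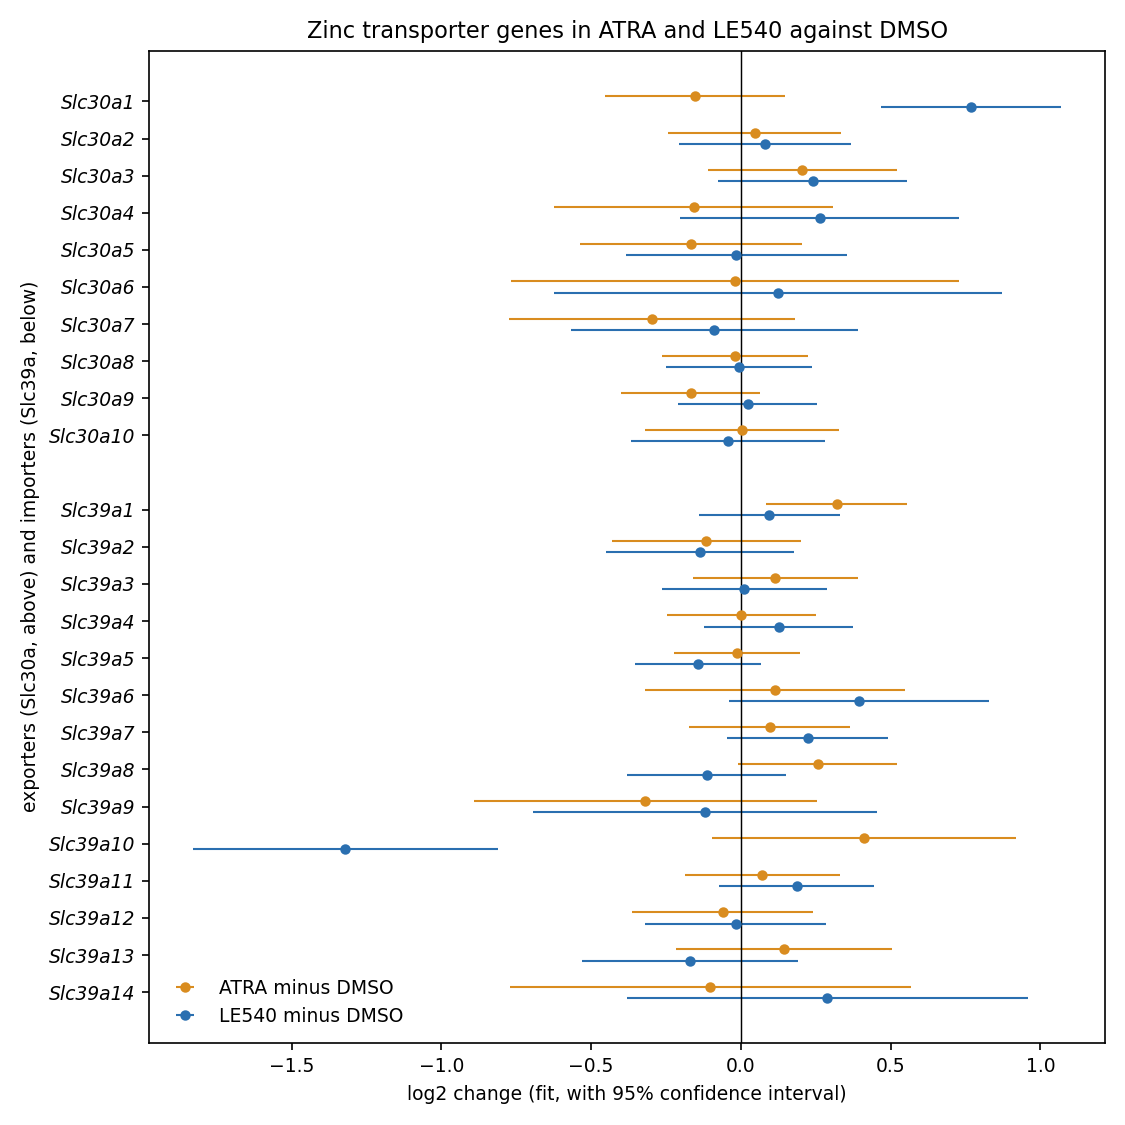
Log2 change against DMSO (x axis, with 95% confidence interval of the fit) for ATRA and LE540 in the 10 measured exporter genes (upper block) and 14 importer genes (lower block). Slc39a10 (-1.32) and Slc30a1 (0.77) with LE540 lie outside the range of the other 22 genes, -0.17 to 0.40.

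Other genes known as MTF-1 targets differed in both directions with LE540. Of the 6 beyond the members, 3 were higher and 3 lower with LE540, with a median log2 difference of 0.06. Of these 0 passed (limma, 0 with an unadjusted p under 0.05), against 0.0299% and 8.8% of all tested probe sets. Counts of 0 among 6 are near these shares, and nothing is read from them. Ndrg1, a stress-induced gene, was at 0.97 (SE 0.51, limma adjusted p = 0.605), a value that rested on LE540 replicate 1 (974, against 214 and 316 in the other LE540 arrays and 194 to 213 in DMSO), and that was 0.34 without that array. With ATRA all 6 were higher (median 0.10), and 0 passed (limma, 0 with an unadjusted p under 0.05). In that comparison 0.0812% of all tested probe sets passed, 4.7% had an unadjusted p under 0.05, and 48.1% of all 19934 genes were higher. The counts of 0 are near these shares, and nothing on the 6 genes as a group is read from them. The largest difference with ATRA among the 6, Pgf at 1.15 (SE 0.68), rested on ATRA replicate 2. That array read 809, against 102 and 108 in the other ATRA arrays and 84.0 to 105 in DMSO.

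Genes for copper and iron and for other inducers of metallothioneins were counted in the same way in LE540 against DMSO. Over all tested probe sets 0.0299% passed there and 8.8% had an unadjusted p under 0.05 (limma). Of 12 copper handling genes 6 were higher (median 0.005) and 0 passed (limma, 0 with an unadjusted p under 0.05). Cox17, a copper chaperone of the mitochondrion, was at 0.35 (SE 0.16), and Ccs, the copper chaperone of superoxide dismutase, at 0.34 (SE 0.19). Of 19 iron handling genes 9 were higher (median -0.03), 4 had an unadjusted p under 0.05 and 1 rose, Hmox1, which degrades heme and also stands in the Nrf2 list. Hmox1 read 832 to 1139 in DMSO, 947 to 1139 in ATRA and 2514 to 4150.3 in LE540 arrays, a log2 difference of 1.70 (SE 0.19, limma adjusted p = 0.0917, or 0.133 with the replicate block), and it did not pass without LE540 replicate 1 (adjusted p = 0.221). Leaving out any 1 of the DMSO arrays, ATRA replicate 2 or ATRA replicate 3 also ended the call (limma adjusted p = 0.134 to 0.437), as did only the 2 groups compared (0.228), quantile normalization (0.142), all rows (0.111), an offset of 16 (0.112) and the Y-linked score (0.147).

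Of 14 Nrf2 and glutathione genes 10 were higher with LE540 (median 0.17), 2 had an unadjusted p under 0.05 and of the 14 Hmox1 alone rose (limma). Slc7a11, the cystine importer, read 281, 1039 and 271 in DMSO, 68.1, 223 and 133 in ATRA and 1889.6, 989 and 1658 in LE540 arrays. LE540 and DMSO overlapped through replicate 2 (1.76, SE 0.58, limma adjusted p = 0.529), and every ATRA array lay below every DMSO array (-1.76, SE 0.58, limma adjusted p = 0.898). ATRA minus LE540 was -3.53 (SE 0.58, limma adjusted p = 0.0608, up to 0.210 with LE540 replicate 1 left out). Of 12 heat shock genes 10 were higher (median 0.18) and 0 passed (limma, 3 with an unadjusted p under 0.05). Hspb1, a small heat shock protein, was at 1.57 (SE 0.52) and Hspb8, another, at 0.98 (SE 0.33), both highest in LE540 replicate 1, and without that array they were at 0.89 and 0.56. Of 14 glucocorticoid response genes 8 were higher (median 0.07) and 0 passed (limma, 1 with an unadjusted p under 0.05). Lcn2, a siderophore-binding lipocalin, was at 0.70 (SE 0.26) and Angptl4, a lipase inhibitor, at 0.51 (SE 0.38), which was 0.19 without LE540 replicate 2 and 0.78 without LE540 replicate 1. Over all 19934 genes 54.0% were higher with LE540. In ATRA against DMSO 0 genes of these 5 lists passed (limma), against 0.0812% of all tested probe sets. A count of 0 is near that share, and nothing is read from it. Over all tested probe sets 4.7% had an unadjusted p under 0.05 there, and 48.1% of all 19934 genes were higher with ATRA. The numbers higher were 3 of 12 for copper, 10 of 19 for iron, 4 of 12 for heat shock, 7 of 14 for glucocorticoid response and 6 of 14 for Nrf2, with medians of -0.05, 0.02, -0.07, 0.04 and -0.02 and with 0, 1, 0, 0 and 1 genes at an unadjusted p under 0.05.

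The genes most like Mt2 and Mt1 were those with the highest Pearson correlation of log2 values over the 9 arrays, given as a description because the 3 LE540 arrays set most of it. For Mt2 they were Sesn2, a stress-induced regulator of growth signalling (r = 0.978), Acot2, a mitochondrial thioesterase (0.965), Arfip2 (0.963), Hmox1 (0.962) and Slc25a33, a mitochondrial nucleotide carrier (0.958). For Mt1 they were Acot2 (0.974), Apobr, a lipoprotein receptor (0.967), Macrod2 (0.954), D330041H03Rik (0.949) and Sesn2 (0.942). Sesn2 read 177 to 204 in DMSO, 189 to 213 in ATRA and 252 to 293 in LE540 arrays, and Slc25a33 81.1 to 95.9, 75.7 to 90.3 and 154 to 245. Each of these 8 genes was higher on all LE540 arrays than on any DMSO array, as were 6.74% of all tested probe sets. That follows largely from how the 8 genes were picked, so nothing is read from it. Macrod2 and D330041H03Rik lay at or below the lower quartile of the arrays, and Arfip2 differed by 0.17 log2 only.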

How the data were processed

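Per the labels, Nugen kits amplified and labelled the RNA of 9 pooled explant samples. The authors deposited an intensity for each probe set, summarised by RMA in Affymetrix Expression Console 1.1 per the submitters' processing notes. RMA corrects background, quantile-normalizes arrays and can compress large differences. The values are linear, so log2 was taken. No build or annotation is given in the sources used here.

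Of 28270 rows, 23397 with a listed gene were tested and 4873 were left out. limma 3.58.1 (R 4.3.3) fitted the 3 groups over all 9 arrays (6 residual and 2.72 prior degrees of freedom), two-sided. The series' design text sets the threshold, an adjusted p (Benjamini-Hochberg) under 0.1. "Rose" is used for what passed. The number of arrays limits the precision. Lists use, per gene, the probe set with the highest mean. Named are all members, the brightest valve marker, the flanking genes and the 5 profiles most like Mt2 and Mt1. Of each list other than the cell markers, those that passed in the comparison described and the 2 with the largest LE540 change are named. Slc39a1, Twist1, Mlana and Pgf were named after their values were seen. Members and lists were chosen with earlier results of these data known. The fit was tested on simulated data before use.

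Deviations from the group means on arrays of equal replicate number had r of 0.143, 0.342 and 0.22 between ATRA and DMSO. Between ATRA and LE540 the r were 0.261, 0.282 and 0.269, and between LE540 and DMSO 0.00946, 0.215 and 0.126. The labels do not say that a replicate number marks a shared litter or day. Whether arrays are paired is therefore not known, and the main fit has no replicate block. Other settings changed which arrays or rows entered, the normalization, the handling of dim probe sets, the prior, array weights, a log2 offset or the replicate block, or left out each array. A Y-linked score, averaging 3 genes' centred log2 values, was added after seeing the data. The labels call the samples biological replicates; p-values measure the spread between these pools.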

Additional observations from a re-analysis of the deposited data

How the results depend on the processing

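The count of members that passed in ATRA against DMSO was 0 under each of the 19 alternatives. In LE540 against DMSO it was 2, and fell to 0 with only the 2 groups compared, after quantile normalization, with all rows tested, with log2 of value plus 16 or with the Y-linked score. It was 1 with array weights (Mt2) and 1 with the replicate block (Mt1), and 0 to 3 with each array left out. In ATRA against LE540 it was 4, fell to 2 with only the 2 groups compared (Mt1 and Mt2), and was 2 to 4 with each array left out. The replicate block changed no call of a member in ATRA against DMSO or ATRA against LE540. Fewer samples enter the fit of 2 groups and more rows are adjusted for in the fit of all rows; the cause was not tested elsewhere.

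The log2 differences of Mt1, Mt2, Slc30a1 and Slc39a10 in LE540 against DMSO and in ATRA against LE540 kept their sign in all alternatives. Signs turned among the small ATRA against DMSO differences. With 1 array left out these ran from -0.058 to 0.49 for Mt1, -0.28 to 0.37 for Mt2, -0.12 to 0.018 for Mt3 and -0.42 to 0.15 for Slc39a14, and with the Y-linked score Mt1 was at -0.22 and Mt2 at -0.092. Over all probe sets the number that passed in LE540 against DMSO was 7, and 0 to 297 with 1 array left out. Signal over background is unknown for probe sets below the lower quartile, such as that of Mt4.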

Other observations

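Ceruloplasmin (Cp, probe set 10490989), the copper-carrying ferroxidase that links copper to iron export, stood on opposite sides of DMSO in the 2 treatments. It read 220.0, 179 and 246 in DMSO, 713, 486 and 790.4 in ATRA and 111, 73.5 and 131 in LE540 arrays, and the 3 groups did not overlap. The log2 difference was 1.61 between ATRA and DMSO (limma adjusted p = 0.141) and -1.06 between LE540 and DMSO (adjusted p = 0.370), neither of which passed, and these comparisons share their DMSO arrays. Between ATRA and LE540 it was 2.67 (SE 0.25, limma adjusted p = 0.00791), higher in 3 of 3 ATRA arrays, and it passed under every alternative tried (2.43 to 2.88). In the fit that adds the Y-linked score, chosen after seeing the data, Cp in LE540 against DMSO was at -1.42 (limma adjusted p = 0.0877).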
